A study of Arabidopsis thaliana with 2 samples.

Results

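DNA methylation was examined at 37 genes of the circadian clock and of light signalling in Arabidopsis thaliana. The genes were taken as a named list, chosen by function but with earlier results of these data known. The list leaves out the clock gene CCA1, which is not reported here. All 37 genes of the list were found among the 27444 protein-coding genes on the nuclear chromosomes. The clock genes are the 5 morning-expressed MYB-like genes LHY (AT1G01060), RVE1 (AT5G17300), RVE4 (AT5G02840), RVE6 (AT5G52660) and RVE8 (AT3G09600), the 2 coactivator genes LNK1 (AT5G64170) and LNK2 (AT3G54500) and the 5 pseudo-response regulators (PRRs) PRR9 (AT2G46790), PRR7 (AT5G02810), PRR5 (AT5G24470), PRR3 (AT5G60100) and TOC1 (AT5G61380). They further include the 3 genes of the evening complex, ELF3 (AT2G25930), ELF4 (AT2G40080) and LUX (AT3G46640), the TCP gene CHE (AT5G08330) and the 2 blue-light F-box genes ZTL (AT5G57360) and LKP2 (AT2G18915). The photoreceptor genes are the 5 phytochromes PHYA (AT1G09570), PHYB (AT2G18790), PHYC (AT5G35840), PHYD (AT4G16250) and PHYE (AT4G18130), the 2 cryptochromes CRY1 (AT4G08920) and CRY2 (AT1G04400) and the 2 phototropins PHOT1 (AT3G45780) and PHOT2 (AT5G58140). The genes that act after them are the 5 of the COP1-SPA complex, COP1 (AT2G32950), SPA1 (AT2G46340), SPA2 (AT4G11110), SPA3 (AT3G15354) and SPA4 (AT1G53090), the transcription factor gene HY5 (AT5G11260) and the 4 phytochrome interacting factors (PIFs) PIF1 (AT2G20180), PIF3 (AT1G09530), PIF4 (AT2G43010) and PIF5 (AT3G59060). For each gene, the listed bins that overlapped it or the 3000 bases before its start were collected, which gave 103 of the 56731 bins in the deposited table.

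Genomic DNA came from whole 12-d-old seedlings grown in long days without treatment, and 1 library was made from the Col-0 wild type (WT) and 1 from miP1a-OX. MiP1a-OX plants carry 35S::FLAG-miP1a, so a viral promoter that is active in most tissues drives the transgene. MiP1a is a microProtein, a small protein with a B-box domain that binds the flowering regulator CONSTANS. Growth was on MS plates according to the methods and on soil according to the sample records, and how many seedlings or independent lines entered a library is not given in the sources used here.

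Bisulfite converts unmethylated cytosines, so that they appear as T in the reads, while methylated ones are protected and appear as C. The deposited values are counts of calls, methylated or unmethylated, at the cytosines of bins spaced 100 bases apart. A bin's methylation level is given here as methylated calls in percent of all calls. It pools all contexts and both strands, and a difference is always the level in miP1a-OX minus the level in Col-0, in percentage points. The table lists a bin when Fisher's exact test of its 4 counts gives p of at most 0.01, so every bin described here was selected for a difference between the libraries, and bins above this threshold are not used here. With 1 library per genotype there was no replicate check, and the test compares 2 libraries, not the genotypes. Calls from the same read are not independent. When a read was counted about once per bin, 0 of the 103 bins kept p of at most 0.01, and the smallest p of Fisher's exact test was 0.0353, at a bin upstream of SPA4. This correction was run only on the 103 bins, so no share over all listed bins stands beside it. The 95% intervals given beside levels are exact (Clopper-Pearson) and cover only the error of counting. Where no call was methylated, the upper limit given is instead 3 calls in percent of all calls. It also takes calls as independent, so it may be too low.

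The plant clock is a network of transcription factors that repress or activate one another at different times of day. Morning MYB-like proteins, PRRs and the evening complex act in sequence, and light resets the network through F-box proteins, phytochromes and cryptochromes. In light signalling, photoreceptors inhibit the COP1-SPA ubiquitin ligase and the PIF transcription factors, and HY5 accumulates and promotes seedling development in light. Plant cytosines can be methylated in the CG, CHG and CHH contexts, where H is A, C or T. Methylation within transcribed genes is mostly CG methylation, whereas all contexts are methylated at transposons and repeats, which can lie upstream of genes.

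Of the 37 genes, 30 had at least 1 listed bin, against 72.1% of all protein-coding genes in windows of the same kind. The 7 genes not listed were LNK2, PRR9, PRR5, ELF4, CHE, PHYD and PIF4. A single bin was listed at 9 genes, 2 to 5 bins at 15 genes and 6 or more at 6 genes. The 6 were CRY1 with 10 bins, PIF3 with 8, LNK1 and PHYC with 7 each, and ELF3 and SPA4 with 6 each. All listed bins were higher in miP1a-OX at 6 genes and lower at 7 genes, and 17 genes had bins in both directions.

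The sequences of 8 bins are printed because they carry the largest difference of their role group and because their cytosines show which contexts the level can come from. Each is the plus strand of TAIR10.1 as given by RefSeq, from 5′ to 3′, with CG dinucleotides in capitals.
SPA4, chr1:19781001-19781099: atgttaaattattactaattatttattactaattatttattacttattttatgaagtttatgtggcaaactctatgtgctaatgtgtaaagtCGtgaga
LKP2, chr2:8200101-8200199: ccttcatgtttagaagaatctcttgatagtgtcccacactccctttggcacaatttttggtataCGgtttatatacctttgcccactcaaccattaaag
PRR7, chr5:641301-641399: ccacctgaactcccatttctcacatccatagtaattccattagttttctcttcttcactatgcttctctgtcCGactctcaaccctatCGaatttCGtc
PIF3, chr1:3073901-3073999: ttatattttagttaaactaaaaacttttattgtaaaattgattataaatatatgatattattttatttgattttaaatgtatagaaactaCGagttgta
CRY2, chr1:1190801-1190899: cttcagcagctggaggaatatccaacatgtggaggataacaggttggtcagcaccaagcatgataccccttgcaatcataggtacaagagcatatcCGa
PHYC, chr5:14007301-14007399: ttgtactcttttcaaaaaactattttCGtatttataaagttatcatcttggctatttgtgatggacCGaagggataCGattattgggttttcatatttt
PHOT1, chr3:16814201-16814299: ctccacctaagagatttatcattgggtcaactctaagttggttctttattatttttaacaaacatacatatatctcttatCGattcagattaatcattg
ELF3, chr2:11058301-11058399: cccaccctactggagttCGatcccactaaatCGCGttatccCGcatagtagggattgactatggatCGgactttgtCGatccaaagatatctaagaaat
The next bin of the SPA4 run was added after its values were seen, because it holds no CG at all.
SPA4, chr1:19780901-19780999: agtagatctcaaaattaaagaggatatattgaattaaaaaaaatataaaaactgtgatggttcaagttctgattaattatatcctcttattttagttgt

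Bins in the genes were mostly lower in miP1a-OX and bins upstream of them mostly higher. Of the 50 bins in the genes, 17 were higher in miP1a-OX and 33 lower, with a median difference of −3.31 points. Of the 53 bins upstream, 39 were higher and 14 lower, with a median of 6.88 points. When the methylated calls that a single DNA fragment could carry, at most 1 for each cytosine of its strand, were taken from the higher library, 2 of the gene bins still had p of at most 0.01 in their direction, 1 higher and 1 lower. Of the upstream bins 19 did, 15 higher and 4 lower. Without this removal, the same split ran through all listed bins: 47.4% of those in protein-coding genes and 77.4% of those upstream and in no protein-coding gene were higher in miP1a-OX. For the 37 genes the shares were 34% in the genes (interval 21.2 to 48.8%) and 82.5% upstream in no protein-coding gene (33 of 40 bins, interval 67.2 to 92.7%). Both intervals include the share over all genes, but they treat each bin as independent. Runs of adjacent bins that changed in the same direction held 35 of the listed bins at the 37 genes. The intervals may therefore be too narrow, so they cannot decide whether these genes differ from all genes.

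**Figure D1:**
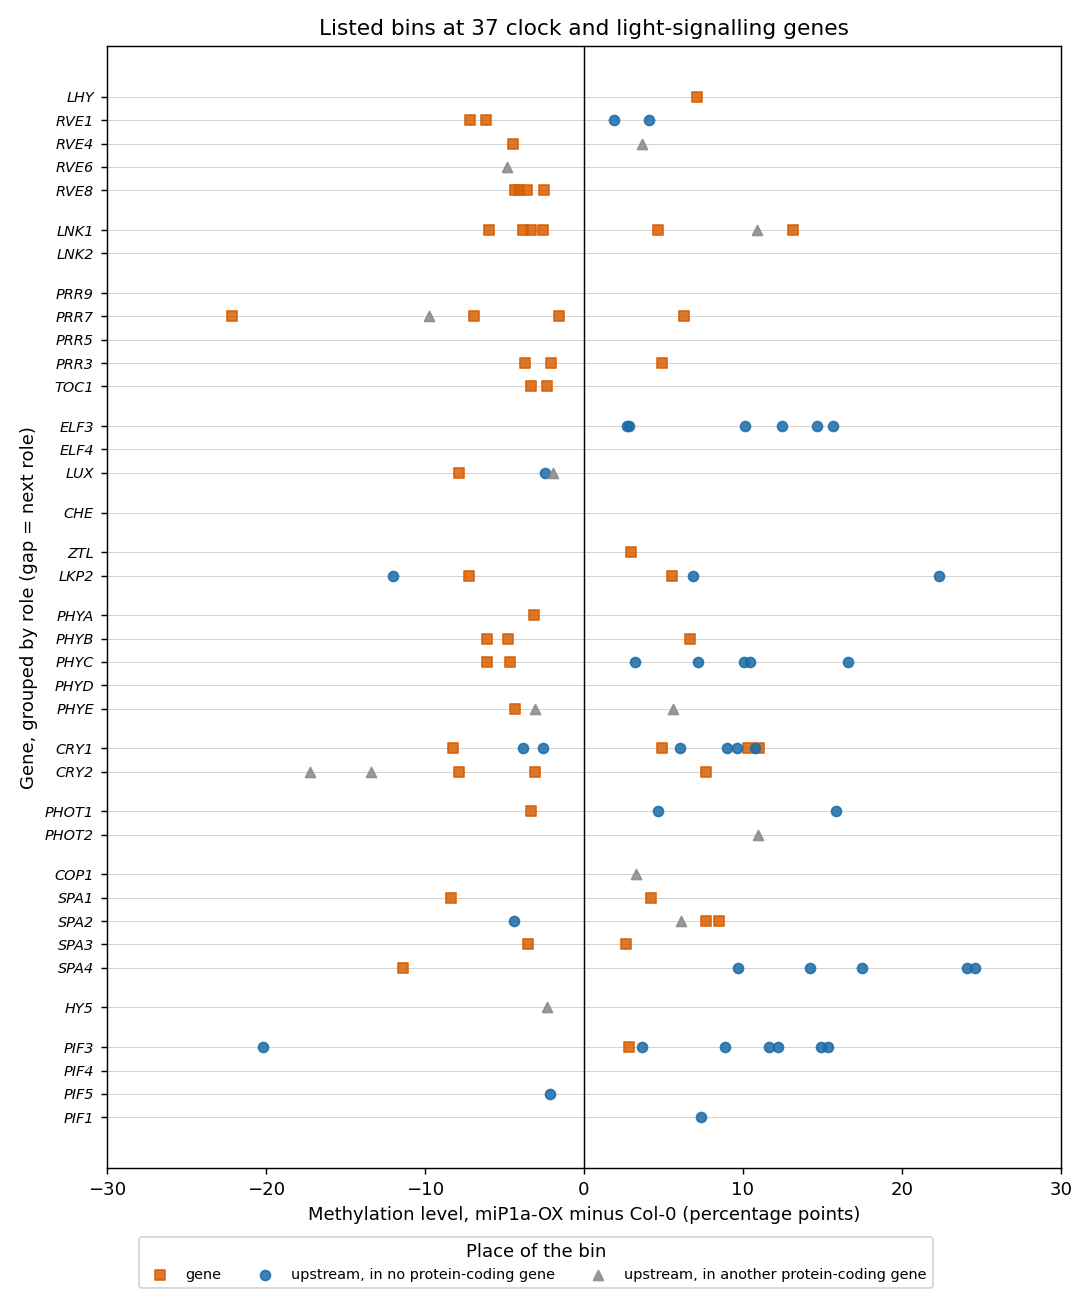
Difference in methylation level, miP1a-OX minus Col-0 in percentage points (x axis), for each of the 103 listed bins, by gene (y axis, grouped by role), with squares for bins in the gene, circles for upstream bins in no protein-coding gene and triangles for upstream bins within another protein-coding gene. Circles lie mostly to the right of 0 (33 of 40) and squares mostly to the left (33 of 50), and genes with no symbol had no listed bin.

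Taken over both places, 56 of the 103 bins were higher in miP1a-OX and 47 lower, a share of 54.4% against 64% of all listed bins on chromosomes 1 to 5. The 64% is not matched for place, since it also covers bins outside genes and their upstream windows. This direction depended on how far upstream the window reached. With 0, 1000 or 2000 bases upstream the share was 34%, 42.4% or 44.3% and the median difference −3.31, −2.38 or −2.30 points, whereas with 3000 bases it was 2.86 points. The bins between 2000 and 3000 bases upstream numbered 24, of which 21 were higher in miP1a-OX, with a median of 10.8 points. In 34 of the 53 upstream bins another annotated gene lay nearer than the clock or light gene, so such a bin cannot be assigned to the gene it is listed under.

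Of the 2580 bins in the windows 3.99% were listed, against 4.72% of all nuclear bins. Within the genes the share listed was 3.4% against 3.13% over all protein-coding genes, and upstream in no protein-coding gene it was 7.19% against 5.52%. A bin with a difference of at least 40 points, the threshold of the study, did not occur: 0 of the 103 bins reached it with Fisher's exact test at p of at most 0.01 and 10 calls in each library, against 0.4% of all listed nuclear bins. After Benjamini-Hochberg adjustment over all bins of the genome, 44 of the 103 bins had an adjusted p of at most 0.01. Of the 12 bins given in full below, those of PIF3, LNK1, CRY1, PHOT2 and SPA2 did not, with adjusted p of Fisher's exact test from 0.0111 to 0.126. The largest difference was 24.6 points, and 29 bins differed by 10 points or more. Of these, 23 were higher in miP1a-OX, 20 of them upstream, and 6 were lower. A bin held 122 to 877 calls, with a median of 384 in Col-0 and 382 in miP1a-OX, which corresponds to a median depth of 21.5-fold and 21.7-fold.

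Among the morning MYB-like genes, 4 bins were higher and 8 lower in miP1a-OX, between −7.14 and 7.11 points, and no bin reached a level above 10%. LHY encodes a MYB-like repressor of evening-phased genes. Its only bin lay in a coding exon and had 8 methylated of 338 calls in Col-0 against 38 of 401 in miP1a-OX, or 2.37% and 9.48%. With 1 fragment removed its difference was 0.833 points (Fisher's exact test, p = 0.651). RVE8, RVE4 and RVE6 encode related activators of evening-phased genes. All 4 bins of RVE8 were lower in miP1a-OX, at −4.35 to −2.48 points, and 3 of them had no methylated call in miP1a-OX. Without the calls of 1 fragment the RVE8 differences were between 0 and 0.204 points, and none passed. RVE4 had 1 bin in each direction and RVE6 had 1 lower bin, and these did not pass after the removal either. RVE1, which connects the clock to auxin synthesis, had a pair of bins on each side of its start. In the 5′ UTR pair, 44 of 653 calls were methylated in Col-0 against 1 of 457 in miP1a-OX, whereas in the upstream pair the counts were 2 of 1127 and 28 of 933. None of the 4 bins was above 7.14% in either library. With 1 fragment removed the 4 differences were between −0.152 and 0.324 points, and none passed. In the first bin 9 of 41 cytosines were covered in miP1a-OX. The 5′ UTR pair also overlaps the gene AT5G17305.

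LNK1 encodes a coactivator that works with the RVE activators. In its coding exon at chr5:25673101-25673199, 95 of 412 calls were methylated in Col-0, or 23.1% (19.1 to 27.4%). The miP1a-OX library had 100 of 276, or 36.2% (30.6 to 42.2%), a difference of 13.2 points (Fisher's exact test, p = 0.000203). Of the 5 bins in genes that were at 15% or more in Col-0, it was the only one that was higher in miP1a-OX. With 1 fragment removed the difference was 6.54 points (Fisher's exact test, p = 0.0662). The 3 bins in the 3′ UTR of LNK1, which overlaps the gene AT5G64160, were lower, with 7 to 15 methylated calls in Col-0 against 0 in miP1a-OX.

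PRRs are transcriptional repressors that are expressed one after another through the day, and TOC1 is the evening member. Their 10 bins were 2 higher and 8 lower in miP1a-OX, with a median of −2.81 points. PRR7 held the largest decrease, in the coding-exon bin printed above. There, 48 of 183 calls were methylated in Col-0, or 26.2% (20.02 to 33.2%), and 11 of 267 in miP1a-OX, or 4.12% (2.07 to 7.25%), a difference of −22.1 points (Fisher's exact test, p = 1.17e-11). The depth in Col-0 was 8.71-fold, and its strand richer in cytosines holds 34, so 2 fully methylated fragments could supply the 48 calls. Without the calls of 1 fragment, the difference was −5.28 points, with p = 0.0504 in Fisher's exact test. PRR3 had 1 higher and 2 lower bins, TOC1 had 2 lower bins, and their differences were at most 4.91 points in size.

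In the evening complex, ELF3 is the scaffold that bridges ELF4 and the DNA-binding protein LUX. All 6 bins of ELF3 lay upstream and were higher in miP1a-OX. The nearest, 545 bases before the gene, had 216 methylated of 458 calls in Col-0, or 47.2% (42.5 to 51.8%). It had 551 of 877 in miP1a-OX, or 62.8% (59.5 to 66.0%), a difference of 15.7 points (Fisher's exact test, p = 5.42e-08). A run of 3 adjacent bins, 2245 to 2445 bases before ELF3, had 198 of 1237 methylated calls in Col-0 (16.0%, 14.0 to 18.2%) against 385 of 1355 in miP1a-OX (28.4%, 26.0 to 30.9%). This run lies nearer to the gene AT2G25920 than to ELF3. LUX showed the opposite direction, with 3 bins that were all lower, at −7.82 to −1.95 points, and 2 of them without a methylated call in miP1a-OX. All 3 LUX bins had few enough methylated calls in Col-0 for 1 fragment to supply.

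The blue-light F-box proteins ZTL and LKP2 mark clock proteins such as TOC1 for degradation. ZTL had 1 bin, with 0 of 342 methylated calls in Col-0, which allows a level of up to 0.877%, and 5 of 168 in miP1a-OX (2.98%). LKP2 had 5 bins, from −12.0 to 22.3 points. In the bin printed above, 2618 bases upstream, 165 of 655 calls were methylated in Col-0, or 25.2% (21.9 to 28.7%), and 200 of 421 in miP1a-OX, or 47.5% (42.6 to 52.4%). The difference was 22.3 points (Fisher's exact test, p = 6.59e-14). Another upstream bin, 918 bases before LKP2, moved the other way, with 290 of 559 methylated calls in Col-0 (51.9%) against 270 of 677 in miP1a-OX (39.9%). Both bins have another annotated gene within 300 bases, a lncRNA gene at the first and AT2G18920 at the second.

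**Figure D2:**
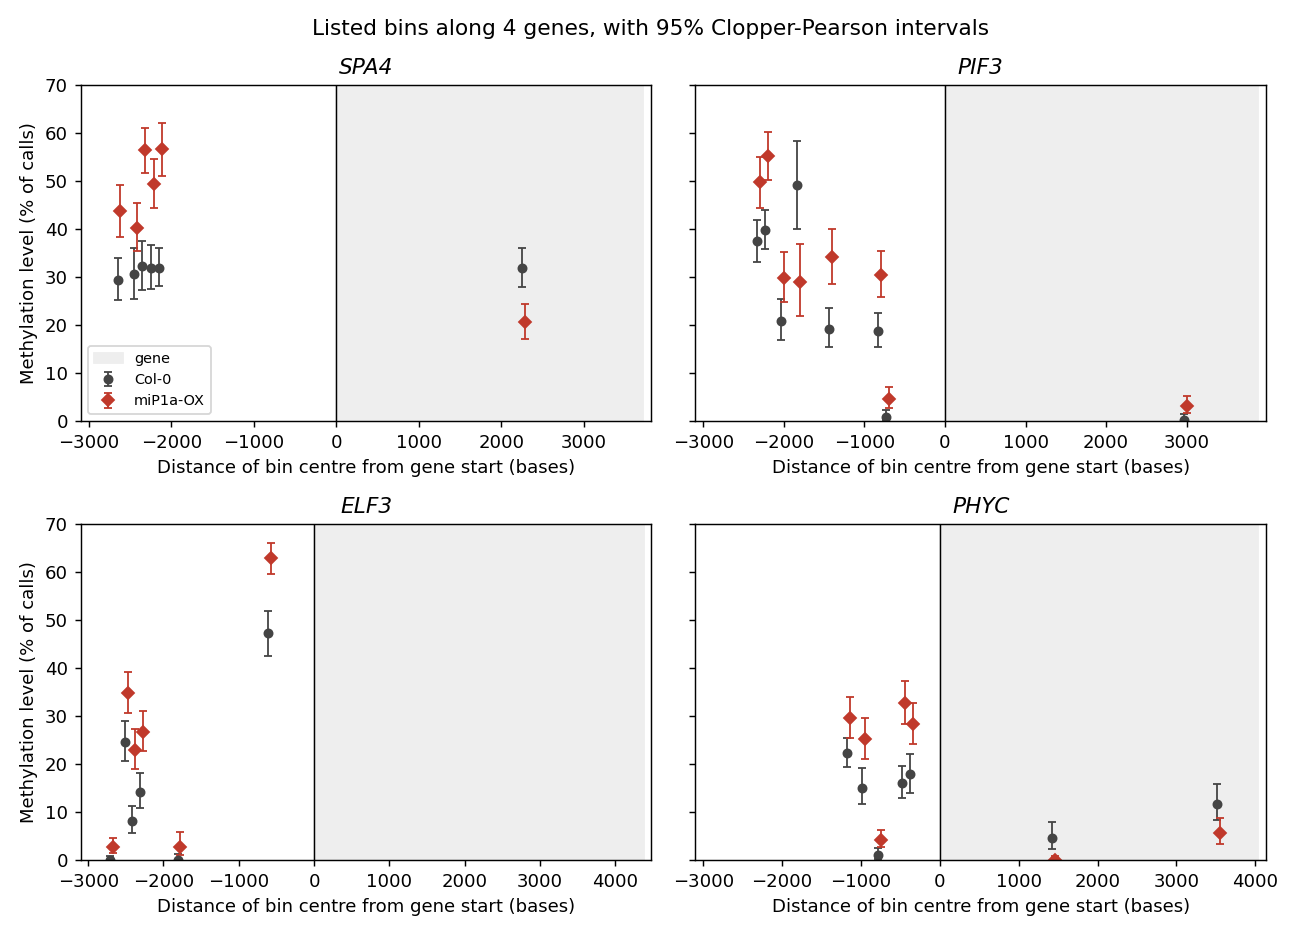
Methylation level in percent of calls (y axis) of the listed bins of SPA4, PIF3, ELF3 and PHYC against the distance of the bin's centre from the gene's start in bases (x axis, upstream negative, gene shaded), for Col-0 (circles) and miP1a-OX (diamonds), with 95% Clopper-Pearson intervals. Upstream of SPA4, ELF3 and PHYC every listed bin was higher in miP1a-OX, and upstream of PIF3 6 of 7 were. Inside SPA4 and PHYC the listed bins were lower, and inside PIF3 the listed bin was higher. The genes shown are a selection, and others differed. CRY1 had higher and lower bins both upstream and in the gene, LKP2 had a lower bin upstream, and the upstream bins of CRY2 were lower.

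Phytochromes are the receptors for red and far-red light. Their 14 bins were split evenly, 7 higher and 7 lower. PHYC had 5 upstream bins, all higher in miP1a-OX, and 2 bins in coding exons, both lower. In the bin printed above, 413 bases before PHYC, 82 of 511 calls were methylated in Col-0, or 16.0% (13.0 to 19.5%), and 144 of 441 in miP1a-OX, or 32.7% (28.3 to 37.2%). The difference was 16.6 points (Fisher's exact test, p = 2.05e-09). Together with its neighbour it had 147 of 875 methylated calls in Col-0 (16.8%, 14.4 to 19.4%) against 270 of 886 in miP1a-OX (30.5%, 27.5 to 33.6%). The nearest other annotated gene lies at least 5185 bases from these upstream bins. PHYB, the main red-light receptor, had 2 lower bins in coding exons and 1 higher bin in the 3′ UTR, between −6.12 and 6.68 points. PHYE had 1 higher and 2 lower bins and PHYA, the far-red receptor, 1 lower bin of −3.15 points.

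The cryptochromes, receptors for blue light, had the most bins for the length of their windows. Of 129 bins 15, or 11.6%, were listed, against 4.72% of all nuclear bins. This is the highest share among the role groups, picked after the shares were seen. Most of the 15 bins did not keep p of at most 0.01 in their direction with 1 fragment removed. CRY1 had 7 higher and 3 lower bins. Its largest difference lay in the coding exon at chr4:5726201-5726299, with 22 methylated of 265 calls in Col-0, or 8.30% (5.28 to 12.3%), and 40 of 207 in miP1a-OX, or 19.3% (14.2 to 25.4%). The difference was 11.0 points (Fisher's exact test, p = 0.000543). Without the calls of 1 fragment it turned to −1.08 points. CRY2, which promotes flowering in long days, had 1 higher and 4 lower bins. Its largest difference was in the bin printed above, 2105 bases upstream, with 41 methylated of 238 calls in Col-0, or 17.2% (12.7 to 22.6%), and 0 of 335 in miP1a-OX, which allows up to 0.896%. The difference was −17.2 points (Fisher's exact test, p = 2.53e-17). With the adjacent bin the counts were 69 of 442 in Col-0 (15.6%, 12.4 to 19.3%) against 1 of 619 in miP1a-OX (0.162%, 0.00409 to 0.897%). With 1 fragment removed, the difference of the bin printed above was −7.94 points (Fisher's exact test, p = 7.41e-08) and that of the adjacent bin −0.771 points (p = 0.562 in the exact test). This pair lies within AT1G04410, the neighbouring gene for a cytosolic malate dehydrogenase.

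Phototropins are blue-light receptor kinases that guide growth towards light. Of their 4 bins, 3 were higher in miP1a-OX, all upstream. The PHOT1 bin printed above, 2422 bases upstream, had 53 of 312 methylated calls in Col-0, or 17.0% (13.0 to 21.6%), and 88 of 268 in miP1a-OX, or 32.8% (27.2 to 38.8%). The difference was 15.8 points (Fisher's exact test, p = 1.12e-05). Its neighbour brought the pair to 57 of 581 calls in Col-0 (9.81%, 7.52 to 12.5%) against 108 of 594 in miP1a-OX (18.2%, 15.2 to 21.5%). PHOT2 had 1 bin, at chr5:23521701-23521799, within the neighbouring gene AT5G58130. There, 36 of 212 calls were methylated in Col-0, or 17.0% (12.2 to 22.7%), and 76 of 272 in miP1a-OX, or 27.9% (22.7 to 33.7%), a difference of 11.0 points (Fisher's exact test, p = 0.00475). Without the calls of 1 fragment the difference was 1.01 points.

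The COP1-SPA complex is the ubiquitin ligase that degrades HY5 and CONSTANS in darkness. Its 15 bins included 11 that were higher in miP1a-OX, with a median of 6.09 points, and 5 of the 11 lay upstream of SPA4. The SPA4 bin printed first above held the largest difference at any of the 37 genes. There, 180 of 563 calls were methylated in Col-0, or 32.0% (28.1 to 36.0%), and 185 of 327 in miP1a-OX, or 56.6% (51.0 to 62.0%), a difference of 24.6 points (Fisher's exact test, p = 1.11e-12). It was the end of the longest run, 4 adjacent bins at chr1:19780701-19781099. Over the run, 512 of 1610 calls were methylated in Col-0, or 31.8% (29.5 to 34.1%), and 779 of 1537 in miP1a-OX, or 50.7% (48.2 to 53.2%). The run starts 2086 bases before SPA4 but only 189 bases from AT1G53080. Inside SPA4, 1 coding-exon bin moved the other way, from 169 of 528 calls (32.0%) to 101 of 489 (20.7%).

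The other genes of this complex had smaller differences. SPA2 had 3 higher and 1 lower bins, the largest difference being in an intron at chr4:6773701-6773799. It had 8 of 269 methylated calls in Col-0, or 2.97% (1.29 to 5.78%), and 31 of 270 in miP1a-OX, or 11.5% (7.94 to 15.9%), a difference of 8.51 points (Fisher's exact test, p = 0.000175). Without the calls of 1 fragment it was −0.525 points. SPA1 and SPA3 had 1 bin in each direction, and COP1, the catalytic subunit, had 1 bin of 3.31 points within a neighbouring gene. HY5, the bZIP factor that the complex targets, had 1 bin, with 8 of 345 methylated calls in Col-0 (2.32%) against 0 of 452 in miP1a-OX. The HY5 bin lies within the neighbouring gene AT5G11270.

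PIFs are bHLH factors that repress light responses and are degraded after binding active phytochrome. Of their 10 bins, 8 belonged to PIF3, of which 7 were higher in miP1a-OX. The exception was the bin printed above, 1769 bases upstream, with 60 of 122 methylated calls in Col-0, or 49.2% (40.0 to 58.4%), and 45 of 155 in miP1a-OX, or 29.0% (22.0 to 36.9%). This difference of −20.1 points (Fisher's exact test, p = 0.000743) lay between bins that rose by 8.89 and 14.9 points, 200 bases farther and 400 bases nearer to PIF3. A pair of bins at chr1:3073401-3073599 had 421 of 1085 methylated calls in Col-0 (38.8%, 35.9 to 41.8%) against 388 of 737 in miP1a-OX (52.6%, 49.0 to 56.3%). The bin that fell had 14 cytosines and the lowest number of calls of all 103 bins. PIF1 had 1 higher bin (1 of 363 calls in Col-0, 20 of 261 in miP1a-OX) and PIF5 1 lower bin (8 of 379 and 0 of 361). For the 18 listed genes not given in full, the largest difference of each was between 2.11 and 8.35 points in size.

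**Figure D3:**
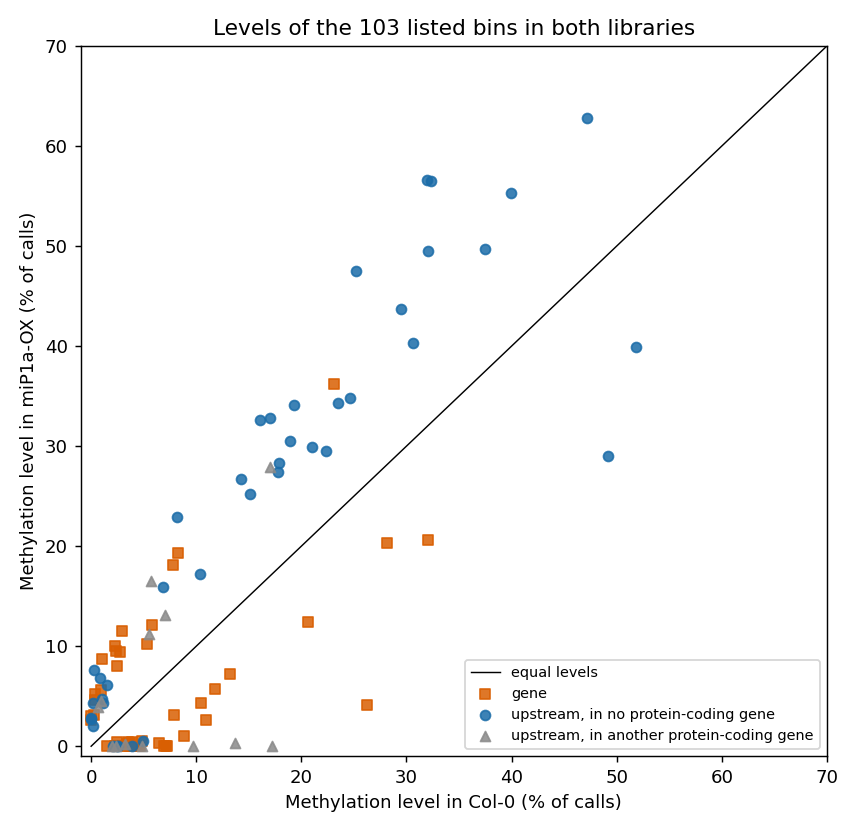
Methylation level in miP1a-OX against the level in Col-0, both in percent of calls, for the 103 listed bins, with symbols for the place of the bin and a line at equal levels. Of the 29 bins at 15% or more in Col-0, 22 lie above the line, 21 of them upstream, and bins near the line are missing because the table lists only bins with p of at most 0.01.

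The bins were also divided by their level in Col-0. Of the 51 bins under 5% in Col-0, 23 were higher in miP1a-OX, against 63.5% of all listed nuclear bins in this class. Of the 23 bins from 5% to under 15%, 11 were higher, against 64.5%. Of the 29 bins at 15% or more, 22 were higher, against 64.2%, with a median of 10.8 points. These shares are over nuclear bins of every place, and the direction differed between genes and upstream. For the lower classes no share matched for place is given, so the gap there cannot be read as particular to these genes. In this class 21 of the 24 upstream bins were higher, against 76.4% of bins upstream of all genes and in no protein-coding gene. The sets are not quite alike, since the 24 include the CRY2 and PHOT2 bins that lie within neighbouring protein-coding genes. Of the 5 gene bins at 15% or more in Col-0, 1 was higher, against 48.2%, and the 4 lower ones were in PRR7, CRY1, CRY2 and SPA4. With 1 fragment removed, the SPA4 bin was still lower, at −7.40 points (Fisher's exact test, p = 0.00761), whereas the others did not pass, at −5.28 points for PRR7, −0.198 points for CRY1 and −1.06 points for CRY2. In 44 bins, or 42.7%, the methylated calls of the higher library were few enough for 1 fragment to supply, against 29.9% of all listed nuclear bins. The shares were 60% in the genes and 22.5% upstream in no protein-coding gene, against 61.7% and 15.1% over all genes. Over all 53 upstream bins, including those within other protein-coding genes, the share was 26.4%. Of the 44 bins 13 were higher in miP1a-OX, against 42.8% of such bins in the genome, and of the 59 other bins 43 were higher, against 73%. The genome shares here are not matched for place either. In miP1a-OX 24 bins (23.3%) had no methylated call, which allows levels of up to 0.54 to 2.03% at their depths, and in Col-0 4 bins (3.88%) had none, which allows up to 0.656 to 1.07%. The share of bins without a methylated call over all listed nuclear bins was 12.1% in miP1a-OX and 7.97% in Col-0, and over those in genes 26.8% and 15.2%. Removal of 1 fragment left 21 bins at 9 genes, 16 higher and 5 lower. It was run only on the bins of these genes, so whether other genes keep more or fewer bins was not tested. Only 2 of the 50 gene bins were left, 1 higher and 1 lower, and 19 of the 53 upstream bins, 15 higher and 4 lower. Another 2 bins, at LNK1 and SPA2, passed with the opposite direction after the removal and are not among the 21. The removal takes calls only from the higher library. It brought the methylated calls in miP1a-OX from 26 to 0 at LNK1 and from 33 to 1 at SPA2. The opposite direction follows from this subtraction and is not a result about these bins. The 9 genes were SPA4 with 5 bins, ELF3 and PIF3 with 4 each, LKP2 and CRY1 with 2 each, and PHYC, PHOT1, CRY2 and PRR7 with 1 each. The PRR7 bin that was left is not the exon bin but one within the neighbouring gene AT5G02830, with 31 methylated of 319 calls in Col-0 against 0 of 462 in miP1a-OX.

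The cytosines of the bins set which contexts a level can come from. The first SPA4 bin has 22 cytosines on both strands, of which 2 are in CG, 0 in CHG and 20 in CHH. If each cytosine was called equally often, CG methylation alone could give a level of at most 9.09%, against 56.6% in miP1a-OX and 32.0% in Col-0. For the LKP2 bin the limit was 5.13%, for PHOT1 6.90%, for CRY2 4.26%, for PIF3 and PRR7 14.3%, for PHYC 20.7% and for ELF3 26.7%, and at each the higher level was above the limit. Over the upstream bins in no protein-coding gene, 30 of 40 (75%) had a level above this limit in the library with more, and over the gene bins 6 of 50 (12%). The shares over all genes were 76.4% and 23.0%. All 24 upstream bins at 15% or more in Col-0 were above it, against 96.5% of such bins upstream of all genes and in no protein-coding gene.

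**Figure D4:**
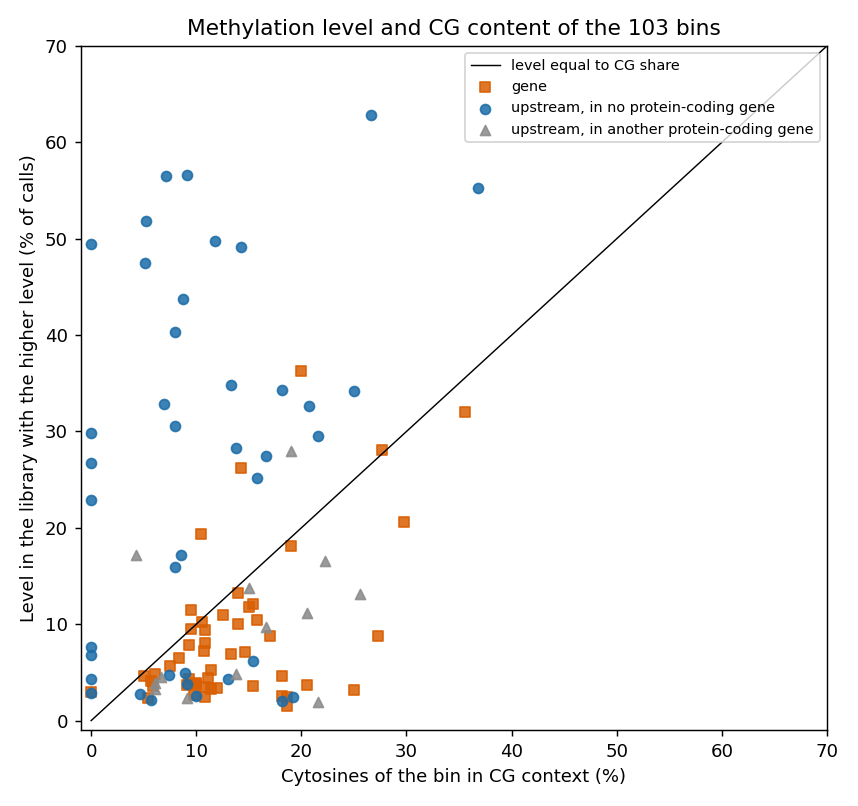
Level in the library with the higher level, in percent of calls (y axis), against the percentage of the bin's cytosines in CG context (x axis) for the 103 listed bins, with symbols for the place of the bin and a line where both are equal. Upstream bins in no protein-coding gene lie mostly above the line (30 of 40) and gene bins mostly below it (44 of 50), and 9 bins stand at 0 on the x axis.

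In 9 of the 103 bins (8.74%) there was no CG at all, against 17.5% of all listed nuclear bins. All 9 were higher in miP1a-OX. They lay upstream of ELF3 (3 bins), PHYC, CRY1, SPA4, PIF3 and PIF1 and in a coding exon of ZTL. Over all listed nuclear bins without a CG, 73.6% were higher in miP1a-OX, and for 3 of the 9 the methylated calls could come from 1 fragment. The highest level was in the ninth sequence above, with 4 cytosines in CHG and 18 in CHH. There, 129 of 403 calls were methylated in Col-0, or 32.0% (27.5 to 36.8%), and 189 of 382 in miP1a-OX, or 49.5% (44.4 to 54.6%). In one ELF3 bin without a CG or CHG, 33 of 402 calls were methylated in Col-0 (8.21%) against 94 of 411 in miP1a-OX (22.9%), and all of its 21 cytosines in the reference are in CHH.

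DNA motifs of clock and light factors were searched on both strands of the 99 bases of each bin. The evening element, AAAATATCT, which MYB-like clock proteins bind, occurred in 12 of the 2580 bins in the windows (0.465%), against 0.459% of all nuclear bins. Of the 103 listed bins 1 held it, a coding-exon bin of TOC1 with 12 of 521 methylated calls in Col-0 (2.30%) against 0 of 342 in miP1a-OX. The G-box, CACGTG, which PIFs and HY5 bind, occurred in 34 of the 2580 bins (1.32%), against 1.08% of all nuclear bins, and in 0 of the 103 listed bins. A match is only a match of letters.

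A second list of 30 genes of the same pathways, among them GIGANTEA (GI), FKF1, further RVE and LNK genes, further PIFs, FHY3 and UVR8, had 51 listed bins at 22 genes. Over all protein-coding genes, 72.1% had a listed bin. Of the bins in the windows of the second list 3.01% were listed, against 4.72% of all nuclear bins. Of the 51 bins 26 were higher in miP1a-OX and 25 lower, against 64% higher over all listed nuclear bins. Their median was 3.25 points, with differences from −18.2 to 26.8 points, and 0 reached 40 points. Upstream 18 of 30 bins were higher, and in the genes 8 of 21. Over all genes the shares were 77.4% upstream in no protein-coding gene and 47.4% in the genes. The 30 upstream bins include some within other protein-coding genes. The largest difference was 276 bases upstream of PKS1, which encodes a phytochrome kinase substrate, with 53 of 453 methylated calls in Col-0 (11.7%) against 101 of 262 in miP1a-OX (38.5%). RVE2 had 4 bins, all upstream and all higher, from 5.20 to 11.9 points. GI, the clock protein that binds ZTL in blue light, had 1 bin of −5.58 points, and FKF1, the relative of ZTL and LKP2, was not listed.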

How the data were processed

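Per the labels and the methods, the authors mapped bisulfite reads to TAIR9 with BS-Seeker2 2.1.0 and Bowtie2, computed methylation with Methpipe, binned the genome and deposited counts of methylated and unmethylated cytosine calls for the bins with p of at most 0.01 in Fisher's exact test. The authors' own p-values, levels and merged list of regions were not used. The genes and window were given by a list, and the members, the lists and the tests were chosen with earlier results of these data known. Genes come from the RefSeq annotation of TAIR10.1, whose C plus G number equalled the deposited cytosine number in 100% of the listed nuclear bins. Bin coordinates are 1-based, and 99 of every 100 bases are listed.

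Levels, Fisher's exact tests (two-sided) and Clopper-Pearson intervals were computed with scipy 1.17.1, pandas 2.3.3 and numpy 2.4.6 in python 3.11.15, and the test was tested on simulated data. Where no call was methylated, 3 calls of the total set the upper limit. Depth is calls per covered cytosine on both strands, times 2. The bin of largest difference was given in full for the 12 genes where it was largest, as were the 6 longest runs of adjacent bins in 1 direction, ties going to the larger difference. A fragment was taken to supply at most as many methylated calls as the bin's richer strand has cytosines. Counting a read about once divided the calls by the cytosines a read covers. Alternatives were other windows and coverage minimums, Benjamini-Hochberg adjustment over 1196690 bins, thinning, centring, other difference thresholds and both read corrections. Fragment removal was fixed for single bins and added for the counts after seeing the data.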

Additional observations from a re-analysis of the deposited data

How the results depend on the processing

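No paired analysis was possible because there is 1 library of each genotype, so no library could be left out either. The 103 bins became 50 with 0 bases upstream, 66 with 1000, 44 with Benjamini-Hochberg adjustment, 0 with a read counted about once and 21 at 9 genes with 1 fragment removed, which was added after seeing the data. Of these 21 bins 2 lay in genes and 19 upstream, and 2 more bins, at LNK1 (−5.70 points) and SPA2 (−6.55 points), passed with the direction reversed and were not counted. Calls were removed only from the higher library, so this reversal follows from the subtraction. The number of genes, 30, became 0 with a read counted about once. The share of 54.4% higher in miP1a-OX fell below 50% with 0 bases upstream (34%), with 1000 (42.4%), with 2000 (44.3%) and after centring on the median of the listed nuclear bins, 5.26 points (38.8%). With 1 fragment removed it was 76.2%. The median difference of 2.86 points was −3.31, −2.38 and −2.30 points with these windows, −2.40 points after centring and 11.0 points with 1 fragment removed. With a difference of at least 20 points in place of 40, 5 bins passed. Of the 12 bins given in full, 7 kept p of at most 0.01 and their direction with 1 fragment removed. The CRY1 bin turned to −1.08 and the SPA2 bin to −0.525 points, and PRR7, LNK1 and PHOT2 lost the call. Coverage minimums of 20 and 50 calls left all 103 bins, since the shallowest had 122 calls.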
